A study of Coelastrella tenuitheca with 9 samples.

Results

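Transcripts of 4 genes of chlorophyll and tetrapyrrole synthesis were followed in the green microalga Coelastrella tenuitheca, strain S93-3, under cadmium. The genes were taken by identifier from the 12605 genes of the deposited tables: A00577 (porphobilinogen synthase), A00125 (porphobilinogen deaminase), A07916 (coproporphyrinogen III oxidase-like) and A03155 (chlorophyll synthase). Poly(A)-selected RNA was sequenced from whole cells of the wild-type strain after 7 days without cadmium (Control, 0 mg/L CdCl2) or with CdCl2 at 20 mg/L (Cd20) or 50 mg/L (Cd50), with 3 libraries per group. All cultures came from a preculture of 5 days on 20 g/L glucose under continuous light, and all were inoculated into fresh medium at an optical density of 0.5. All groups are of this single strain, and nothing in the labels tells whether its libraries are separate cultures. The p-values therefore measure the spread among these libraries, and that spread may be technical.

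Tetrapyrroles are the ring-shaped pigments that carry magnesium in chlorophyll and iron in heme. In green algae and plants the pathway starts from glutamate, which is turned into 5-aminolevulinate. Porphobilinogen synthase joins a pair of aminolevulinate molecules into a pyrrole, porphobilinogen deaminase links these pyrroles into a chain, and coproporphyrinogen oxidase acts on the closed ring shortly before the pathway divides into the heme and chlorophyll branches. Chlorophyll synthase ends the chlorophyll branch by attaching the prenyl tail that anchors the pigment in the photosynthetic membrane. Porphobilinogen synthase is a metal-dependent enzyme that is known to be sensitive to heavy metals in animals, where lead inhibits it.

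Names of products were taken as deposited, for the 19.49% of genes that have one, and each stands for a similarity to a protein of another organism. The best match named for chlorophyll synthase was from a yeast (Debaryomyces hansenii), and those for the other members were from other fungi, so the names do not rest on studied algal genes. The name of A07916 reads "oxidase-like" and does not say whether the gene encodes a coproporphyrinogen oxidase, or which of the unrelated types. Its place among the earlier steps of the pathway rests on this name. For each of the 4 members, 0 other genes in the table carried the same product name.

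The 4 genes lie on 4 different chromosomes. Coordinates are as deposited, and no source used here names their assembly. A00577 lies on chromosome 11 from 758631 to 761556, a span of 2926 bases of which 1092 (37.3%) are in the coding length. A00125 lies on chromosome 10 from 1690535 to 1693407, with 1026 coding bases in a span of 2873. A07916 lies on chromosome 5 from 1362926 to 1366301, with 1110 coding bases in a span of 3376. A03155 lies on chromosome 16 from 64833 to 67795, with 936 coding bases in a span of 2963. Each member overlapped 0 other genes of the table, and the smallest gap to a neighbour was 386 bases, beside A03155. The files give no strand, so it was not determined which end of a gene is its start.

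Totals of 10457007 to 15456743 reads assigned to genes were obtained per library, and 11140 genes with enough counts were tested, all 4 members among them. On the first principal component of log2 CPM (counts relative to the library total, adjusted with TMM factors) Control 1 (-12.2) and Cd50 1 (17.7) were displaced towards Cd20 (-58.1 to -45.0), with their fellow libraries at 13.8 and 29.0 in Control and at 51.3 and 52.7 in Cd50. The labelled cell type, a photosynthetic algal cell, was borne out by its markers: 15 chlorophyll a-b binding genes and the Rubisco small subunit gene were measured, and at most 1 of these 16 was at 0 in any library. Their summed level was 5097 to 5774 FPKM (counts divided by coding length and by library total, as deposited) in Control, 2795 to 3069 in Cd20 and 4168 to 4372 in Cd50. The Rubisco gene A03462 made up 67.6% to 81.0% of each library's sum. The 15 antenna genes alone summed to 967 to 1138 FPKM in Control, 817 to 993 in Cd20 and 1208 to 1280 in Cd50. On this scale their sum stood above Control in Cd50, where that with Rubisco stood below it. FPKM divides by library total. Scaled that way, the median log2 fold change of all genes was itself 0.26 in Cd50 against Control. The antenna sum was not compared under TMM, so a rise beyond that shift was not shown. The part of these markers in the members' results was not tested. In RNA from whole cultures, fewer cells with a transcript and less of it per cell cannot be told apart.

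Relative to Control, 3 of the 4 genes passed the test in Cd20, 2 higher and 1 lower, where 51.0% of all tested genes passed, 23.8% higher and 27.2% lower (edgeR quasi-likelihood test, Benjamini-Hochberg adjusted p under 0.05 over all genes tested). In Cd50 against Control 3 of 4 passed, again 2 higher and 1 lower, against 39.6% of all genes, 17.8% higher and 21.8% lower. Between the concentrations, Cd50 against Cd20, 3 of 4 passed, 2 higher and 1 lower, against 70.0% of all genes, 35.3% higher and 34.7% lower. With 4 genes these shares do not set the pathway apart from the table as a whole, and the genes did not move together. Porphobilinogen synthase was higher at each concentration, porphobilinogen deaminase passed in no comparison, the coproporphyrinogen oxidase-like gene was highest at 20 mg/L, and chlorophyll synthase was lowest there.

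**Figure D1:**
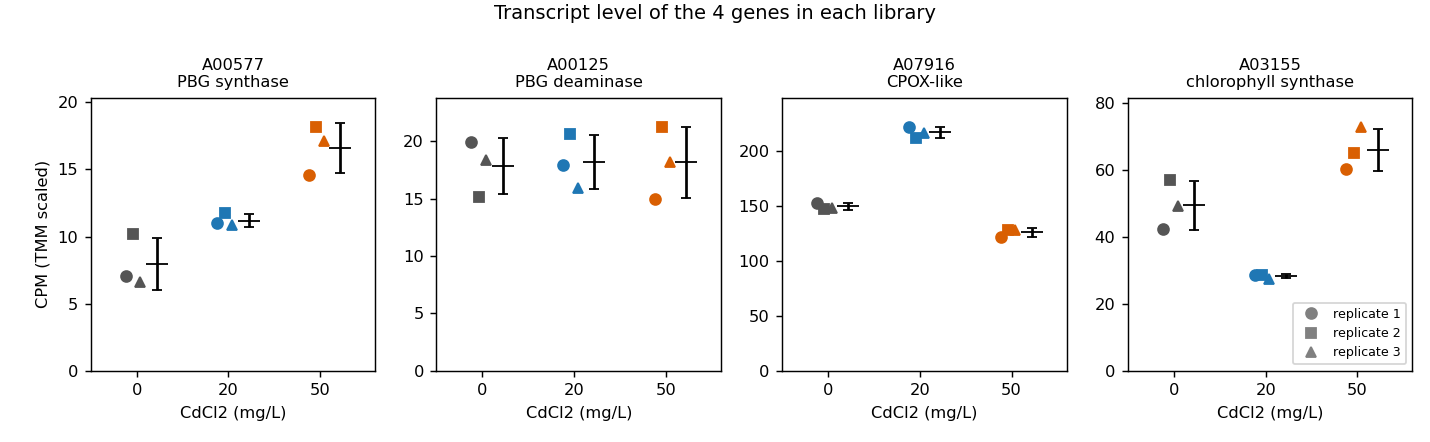
Transcript level of the 4 genes against CdCl2 concentration (mg/L), in TMM-scaled CPM; each symbol is a library, and the bar with whiskers is the mean and SD of the 3 libraries of a group; PBG stands for porphobilinogen and CPOX for coproporphyrinogen oxidase. Chlorophyll synthase lies between 27.6 and 28.7 CPM in the 3 Cd20 libraries, below all libraries of the other groups, while the coproporphyrinogen oxidase-like gene lies between 212 and 222 CPM in Cd20, above all others.

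Porphobilinogen synthase (A00577), the enzyme that forms the first pyrrole, rose with each step in cadmium. Its level was 7.09, 10.2 and 6.58 CPM in Control 1, 2 and 3, 10.99, 11.8 and 10.8 CPM in Cd20, and 14.6, 18.2 and 17.1 CPM in Cd50. The 3 groups did not overlap, although Control 2 came close to the lowest Cd20 library. Groups did not overlap for 61.6% of all tested genes in Cd20 against Control, 46.9% in Cd50 against Control and 74.5% in Cd50 against Cd20, so separation alone is common in this table. Means were 7.95 ± 1.96 CPM in Control, 11.2 ± 0.502 in Cd20 and 16.6 ± 1.85 in Cd50 (SD, n = 3 each). In Cd50 against Control the log2 fold change was 1.07 (SE 0.18, 95% interval 0.68 to 1.45, edgeR adjusted p = 0.000616), a 2.09-fold level that lay above 96.7% of all tested genes. Between Cd50 and Cd20 it was 0.57 (SE 0.17, edgeR adjusted p = 0.0113). Both of these calls held under each alternative tried, the omission of each of the 9 libraries among them, at an adjusted p of 0.0472 or lower.

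The rise of A00577 at the lower concentration was less firm. In Cd20 against Control the log2 fold change was 0.50 (SE 0.18, 95% interval 0.10 to 0.89, edgeR adjusted p = 0.0371). Leaving out 1 library ended the call in 5 cases, with edgeR adjusted p = 0.0807 for Control 1, 0.146 for Control 3, 0.0866 for Cd20 1, 0.106 for Cd20 2 and 0.0648 for Cd20 3. With Control 2, the highest control, left out, the log2 fold change was 0.71 (adjusted p = 0.00613). Scaled by library size alone it was 0.37 (adjusted p = 0.142). The gene has few reads, 79 to 248 per library, and counting error alone gives a coefficient of variation of 8.37% at its mean count. The authors' deposited table also lists it in all 3 comparisons, with log2 fold changes of 0.52 for Cd20 against Control, 1.05 for Cd50 against Control and 0.54 for Cd50 against Cd20.

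Porphobilinogen deaminase (A00125), which acts on the product of A00577, differed in no comparison by more than the spread between libraries. Its level was 20.0, 15.2 and 18.3 CPM in Control 1 to 3, 17.9, 20.7 and 15.9 CPM in Cd20, and 15.0, 21.2 and 18.2 CPM in Cd50. The 3 groups overlap over nearly their whole ranges, and the lowest and the highest library of the 9 both belong to Cd50. Log2 fold changes were 0.03 in Cd20 against Control (95% interval -0.33 to 0.39, edgeR adjusted p = 0.895), 0.03 in Cd50 against Control (-0.33 to 0.38, adjusted p = 0.908) and -0.00097 in Cd50 against Cd20 (-0.36 to 0.36, adjusted p = 0.996). The intervals leave room for a change of up to about 0.39 on the log2 scale in either direction, so an equal level was not shown. The authors' deposited tables list A00125 in 0 of 3 comparisons.

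The interval of A00577 in Cd50 against Control, from 0.68 upwards, lies wholly above that of A00125, the enzyme after it, which ends at 0.38. The difference between these fold changes was not itself tested. Shares within a library show the pair without any scaling between libraries. A00577 made up 3.42 ± 0.757% of the summed FPKM of the 4 genes in Control, 4.05 ± 0.196% in Cd20 and 7.00 ± 0.439% in Cd50 (SD, n = 3). For A00125 these shares were 8.20 ± 1.29% in Control, 6.99 ± 0.903% in Cd20 and 8.12 ± 1.06% in Cd50. In FPKM, A00577 stood at 17.5 ± 2.94 and A00125 at 20.4 ± 4.52 in Cd50, against 7.11 ± 1.87 and 16.9 ± 1.92 in Control. The FPKM of the pair overlapped between libraries in Cd50, where A00577 reached 19.7 and A00125 went down to 15.6, and did not overlap in Control. Within each Cd50 library A00125 was still the higher, at 1.10, 1.24 and 1.13 times A00577 in Cd50 1 to 3.

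The coproporphyrinogen oxidase-like gene (A07916), named for the step before protoporphyrinogen, was the most abundant of the 4 and rose at 20 mg/L. Its level was 153, 148 and 148 CPM in Control 1 to 3, 222, 212 and 217 CPM in Cd20, and 121, 128 and 129 CPM in Cd50. The libraries of a group agreed closely, with a coefficient of variation between 1.92% and 3.22%. The groups did not overlap, as for 46.9% to 74.5% of all tested genes, depending on the comparison. In Cd20 against Control the log2 fold change was 0.54 (SE 0.08, 95% interval 0.36 to 0.72, edgeR adjusted p = 0.000323), a 1.45-fold level. In Cd50 against Cd20 it fell by 0.78 on the log2 scale (SE 0.08, adjusted p = 3.64e-05). These calls held under every alternative tried, with log2 fold changes of 0.41 to 0.57 for Cd20 against Control and -0.82 to -0.42 for Cd50 against Cd20.

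In Cd50 against Control A07916 fell by 0.25 on the log2 scale (SE 0.08, 95% interval -0.43 to -0.07, edgeR adjusted p = 0.0331), and this call depended on the settings. Leaving out 1 library ended it in 7 cases, with edgeR adjusted p = 0.108 for Control 1, 0.0854 for Control 3, 0.0569 for Cd20 1, 0.0556 for Cd20 2, 0.0618 for Cd20 3, 0.106 for Cd50 2 and 0.0865 for Cd50 3. With library size alone the log2 fold change was -0.0066 (adjusted p = 0.956). On the deposited FPKM scale, which divides by library size, A07916 stood at 131 ± 12.3 in Cd50 and 131 ± 1.5 in Control (SD, n = 3), with overlapping libraries. The authors' deposited table for Cd50 against Control does not list A07916, while their tables list it at 0.56 for Cd20 against Control and at -0.81 for Cd50 against Cd20.

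Chlorophyll synthase (A03155), the last enzyme of the chlorophyll branch, fell at 20 mg/L and rose at 50 mg/L. Its level was 42.3, 56.9 and 49.3 CPM in Control 1 to 3, 28.7, 28.5 and 27.6 CPM in Cd20, and 60.2, 65.1 and 72.9 CPM in Cd50. All Cd20 libraries lie below all controls, and all Cd50 libraries above them, where 61.6% and 46.9% of all tested genes were likewise separated from Control in one direction or the other. Means were 49.5 ± 7.31 CPM in Control, 28.3 ± 0.604 in Cd20 and 66.0 ± 6.38 in Cd50 (SD, n = 3 each). In Cd20 against Control it fell by 0.81 on the log2 scale (SE 0.13, 95% interval -1.08 to -0.53, edgeR adjusted p = 0.000369), to 0.571 of the Control level. In Cd50 against Cd20 the log2 fold change was 1.22 (SE 0.13, 95% interval 0.95 to 1.5, adjusted p = 3.25e-05), a 2.34-fold level that lay above 88.6% of all tested genes. This comparison is also the test of whether the 2 concentrations differ in their effect, since both were set against the same controls.

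The rise of A03155 in Cd50 against Control was the smaller change, with a log2 fold change of 0.42 (SE 0.12, 95% interval 0.15 to 0.69, edgeR adjusted p = 0.0186). Leaving out Control 1, Control 3 or Cd50 3 ended the call, with edgeR adjusted p = 0.0538, 0.0615 and 0.0717. Control 1 and Cd50 1, displaced towards Cd20 over all genes, were also the lowest libraries of their groups for A03155. Without both of them, an alternative chosen after the data were seen, the log2 fold change was 0.40 with an adjusted p of 0.0042. The authors' deposited tables list A03155 at -0.78 for Cd20 against Control, 0.40 for Cd50 against Control and 1.19 for Cd50 against Cd20.

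**Figure D2:**
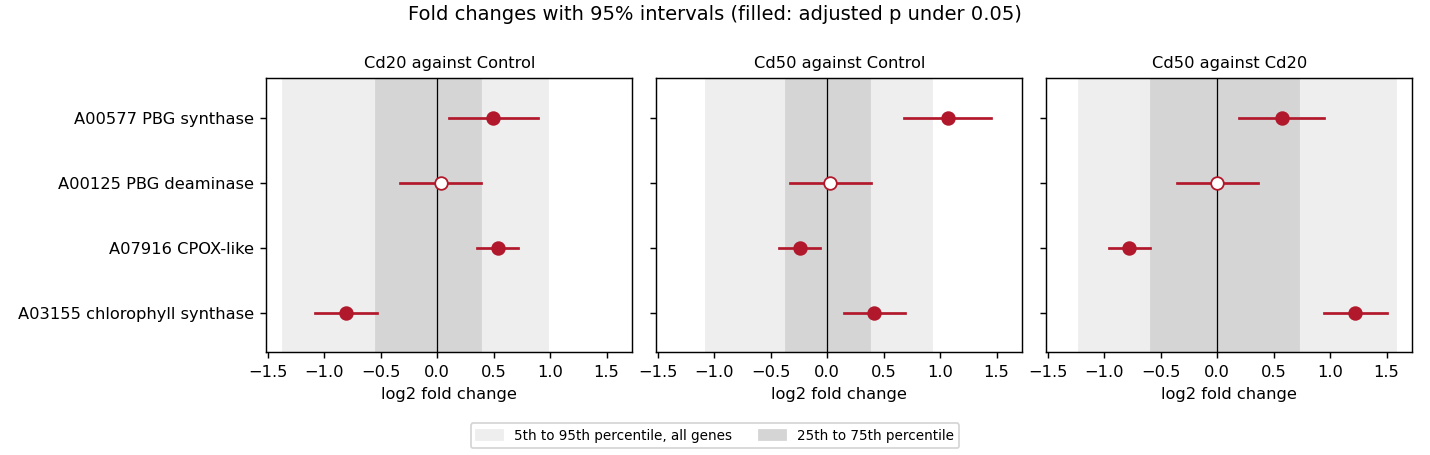
Log2 fold changes (points) with 95% intervals (lines) of the 4 genes in the 3 comparisons, over bands that span the 5th to 95th and the 25th to 75th percentile of all 11140 tested genes; filled points passed at an adjusted p under 0.05. Chlorophyll synthase is at -0.81 in Cd20 against Control and at 1.22 in Cd50 against Cd20, and porphobilinogen synthase at 1.07 in Cd50 against Control lies outside the outer band.

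Per length, the order of the genes was the same in every group. In Control the means were 7.11 ± 1.87 FPKM for A00577, 16.9 ± 1.92 for A00125, 51.7 ± 8.97 for A03155 and 131 ± 1.5 for A07916 (SD, n = 3). In Cd20 they were 9.18 ± 0.494, 15.9 ± 2.21, 27.0 ± 0.716 and 175 ± 2.85 FPKM in the same order of genes. In Cd50 A00577 and A00125 overlapped between libraries, though A00125 was the higher within each library. A03155 reached 81.3 ± 12.3 FPKM in Cd50, against 131 ± 12.3 for A07916. Among all tested genes, the percentile rank of A07916 by FPKM was 89.7 in Control, 92.9 in Cd20 and 90.2 in Cd50. The rank of A03155 was 76.8, 65.2 and 84.2 at 0, 20 and 50 mg/L, and that of A00577 was 34.5, 43.7 and 51.3.

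Proportions between the genes of a library do not depend on how the libraries were scaled to each other. They are made of the same levels as the fold changes above and are not separate results. For chlorophyll synthase relative to the mean of the 3 earlier steps, the log2 values of Control 1 to 3 were 0.59, 1.00 and 0.90. They were -0.30, -0.39 and -0.28 in Cd20, and 1.01, 0.82 and 1.08 in Cd50. The difference was -1.15 in Cd20 against Control, with no overlap between groups (2-sided exact permutation test, p = 0.1, the smallest that 3 against 3 libraries can give). Cd50 differed from Cd20 by 1.29 with no overlap (exact permutation p = 0.1) and from Control by 0.14 with overlap (exact permutation p = 0.4). The comparison with Control at 50 mg/L turned with the partner chosen: it was -0.65 relative to A00577 alone, 0.40 relative to A00125 and 0.67 relative to A07916.

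Set against the first enzyme of the 4, each of the 3 later genes stood at a smaller FPKM ratio in every Cd50 library than in any Control library. The 3 ratios share A00577, whose own 2.09-fold rise in Cd50 against Control lay above 96.7% of all tested genes. They therefore carry that rise and are not separate results about the later genes. The FPKM ratio of A00125 to A00577 was 2.51 ± 0.807 in Control, 1.72 ± 0.152 in Cd20 and 1.16 ± 0.0769 in Cd50 (SD, n = 3), with Cd20 overlapping Control. The FPKM ratio of A03155 to A00577 was 7.41 ± 1.18 in Control, 2.95 ± 0.114 in Cd20 and 4.66 ± 0.418 in Cd50 (SD, n = 3), and the 3 groups did not overlap. It was smaller in Cd50 than in Control but larger than in Cd20. For A07916 over A00577 the Control libraries 1 to 3 gave FPKM ratios of 21.2, 14.2 and 22.2. The ratios were 19.8, 17.7 and 19.7 in Cd20, and 8.20, 6.95 and 7.39 in Cd50. The Cd20 values lie inside the range of Control, and the Cd50 values lie below all others. A07916 made up 63.5 ± 2.46% of the summed FPKM of the 4 genes in Control, 77.1 ± 1.22% in Cd20 and 52.4 ± 1.66% in Cd50.

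**Figure D3:**
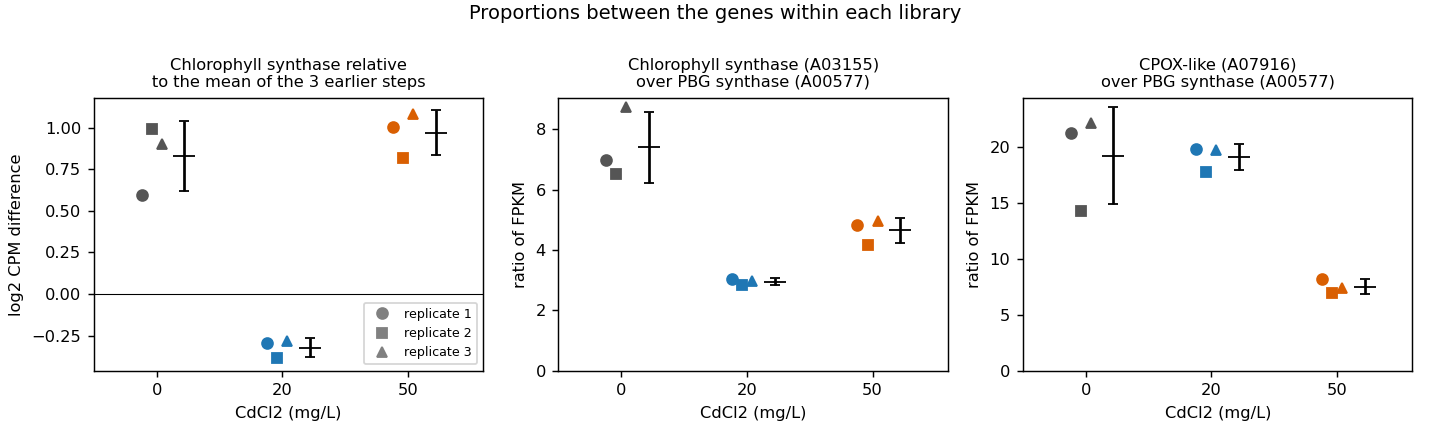
Proportions within each library against CdCl2 concentration (mg/L): left, log2 CPM of chlorophyll synthase minus the mean log2 CPM of the 3 earlier steps; middle and right, ratios of FPKM to porphobilinogen synthase; symbols are libraries, bars and whiskers mean and SD. The Cd20 libraries are alone below 0 on the left, and the Cd50 libraries lie between 6.95 and 8.20 on the right, below all others.

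The scaling between libraries bears on these genes because it moves all genes at once. With TMM the median log2 fold change of all genes was -0.03 in Cd20 against Control, 0.03 in Cd50 against Control and 0.03 in Cd50 against Cd20. Scaled by library size alone, these medians were -0.16, 0.26 and 0.39, and under upper quartile factors -0.13, 0.19 and 0.28. The share of higher genes among those called moved with it, for Cd50 against Control to 70.9% under library size and 62.9% under upper quartile factors, from 44.9% under TMM, and for Cd20 against Control to 36.6% under library size, from 46.7%. For Cd50 against Cd20 it was 70.6% under library size and 64.5% under upper quartile factors, from 50.4% under TMM. Relative to the median of all genes, A07916 stood at -0.27 in Cd50 against Control under TMM and under library size alone. A03155 stood at 0.39 above that median under both, and A00577 at 1.04 under both. Because scaling moves all genes at once, these distances from the median stay nearly fixed whatever the factors. They are therefore no test of the calls.

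**Figure D4:**
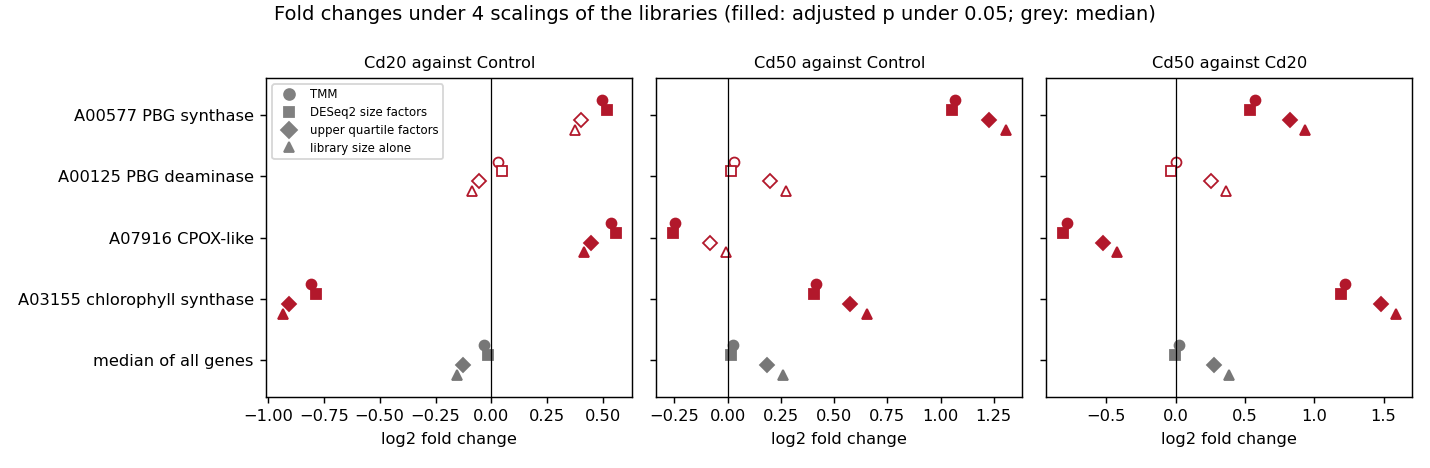
Log2 fold changes of the 4 genes under 4 scalings of the libraries (symbols), with the median of all genes in the lowest row; filled red symbols passed at an adjusted p under 0.05. In Cd50 against Control the coproporphyrinogen oxidase-like gene is at -0.25 with TMM and -0.0066 with library size alone, while the median of all genes moves from 0.03 to 0.26.

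Words for the other steps of the pathway (among them glutamyl-tRNA reductase, glutamate-1-semialdehyde, uroporphyrinogen, magnesium chelatase, ferrochelatase and chlorophyllide) matched 1 further gene, A01670, described as a tetrapyrrole methylase. That family methylates tetrapyrrole rings in the making of siroheme and cobalamin, and some of its members act on other substrates. Its level was 8.36 ± 1.74 CPM in Control, 4.32 ± 0.287 in Cd20 and 9.99 ± 1.14 in Cd50 (SD, n = 3). A01670 fell by 0.95 on the log2 scale in Cd20 against Control (edgeR adjusted p = 0.00226), and was at 1.21 in Cd50 against Cd20 (adjusted p = 0.000274) and at 0.26 in Cd50 against Control (adjusted p = 0.263). Its directions in Cd20 against Control and in Cd50 against Cd20 were those of chlorophyll synthase.

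Glutamate, from which the pathway starts, is made by glutamate synthase, and 2 genes carry that name. A01637, described as a small subunit, fell by 0.34 in Cd20 against Control (edgeR adjusted p = 0.0334) and by 0.33 in Cd50 against Control (adjusted p = 0.044). The Cd20 call ended when Control 2, Control 3 or any Cd20 library was left out (adjusted p of 0.0757 to 0.156), and the Cd50 call when any library but Control 1 was (0.0508 to 0.154) or when libraries were scaled by size alone (0.578). A08811 was at 0.06 in Cd20 and at -0.11 in Cd50 relative to Control and passed in 0 of 3 comparisons.

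Of 6 genes matched by words for the prenyl chain, which chlorophyll synthase draws on for the pigment's tail, 2 were higher and 2 lower in Cd20 against Control (66.7% called, against 51.0% of all genes), and 1 was lower in Cd50 against Control (16.7%, against 39.6%). The list median was -0.01 for each, against medians of -0.03 and 0.03 over all genes. The matches named for making units of prenyl chains are A02585, an isopentenyl-diphosphate isomerase, and A09746, a farnesyl pyrophosphate synthetase. Both were singled out after their values were seen, and whether either serves the tail of chlorophyll was not determined. A02585 was at 19.8 ± 3.4 CPM in Cd20 and 12.0 ± 3.29 in Control (SD, n = 3), a log2 fold change of 0.72 (edgeR adjusted p = 0.0149). That call ended when Control 2 (adjusted p = 0.0567), Control 3 (0.0507) or Cd20 3 (0.0632) was left out. A09746 was at 0.18 (adjusted p = 0.137).

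The other 4 matches use the chain for other ends. Lanosterol synthase A00972 and squalene synthase A07551, enzymes of sterol synthesis, fell in Cd20 against Control by 0.51 and 1.33 on the log2 scale (edgeR adjusted p = 0.00208 and 0.00239). The protein prenylation subunit A07083 was at 0.51 in that comparison (adjusted p = 0.0262), a call that ended when Control 2, Control 3 or any Cd20 library was left out (adjusted p of 0.0514 to 0.102). With Control 2, Control 3 or Cd20 3 left out, 2 of the 6 genes passed in Cd20 against Control, both lower. In Cd50 against Cd20, 1 of 6 was higher and 1 lower with TMM (33.3% called, against 70.0% of all genes), and 4 higher and 1 lower with library size alone. The sixth match, a squalene epoxidase-domain gene (A04249), passed in 0 of 3 comparisons.

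Chlorophyll-binding antenna proteins take up what chlorophyll synthase makes, and 13 of 15 such genes could be tested. In Cd20 against Control 4 were higher and 6 lower (76.9% called, against 51.0% of all genes), with a list median of -0.20, against -0.03 over all genes. For Cd50 against Control, 4 were higher and 4 lower (61.5%, against 39.6%), with a median of 0.23, against 0.03. In Cd50 against Cd20 6 were higher and 3 lower (69.2%, against 70.0%), with a median of 0.28. A00964 was at 93.0 ± 14.7 CPM in Control, 23.4 ± 3.12 in Cd20 and 45.6 ± 4.96 in Cd50 (SD, n = 3). A10888 was at 97.9 ± 4.78, 26.3 ± 4.81 and 38.4 ± 5.74 CPM at 0, 20 and 50 mg/L. Both fell at each concentration (edgeR adjusted p of 1.35e-06 to 0.000171), and at 50 mg/L they stood below Control, where chlorophyll synthase stood above it. They were named for their low p, and the 4 antenna genes that were higher in Cd50 went with chlorophyll synthase at that concentration only. Of the 4, A03391, A02975 and A01219 were also higher in Cd20 against Control, where chlorophyll synthase fell. They were at 0.93, 0.92 and 0.92 there (edgeR adjusted p of 6.29e-05 to 0.000404), and A01726 did not pass (0.24). A01726, the most abundant antenna gene and singled out after its values were seen, was among these 4. It was at 326 ± 22.8 CPM in Cd50 and 226 ± 15.9 in Control (edgeR adjusted p = 0.0028). A02981 fell by 1.68 in Cd20 against Control and by 0.49 in Cd50 against Control (adjusted p = 0.0466).

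The Cd50 call of A02981 was lost with library size alone (adjusted p = 0.239) and with a replicate block (0.0538). It also ended when any of Control 2, Control 3, Cd20 2, Cd20 3, Cd50 2 and Cd50 3 was left out (adjusted p of 0.0562 to 0.174). A01219 was at 0.92 in Cd20 and at 0.51 in Cd50 relative to Control (edgeR adjusted p = 0.000404 and 0.0164), and fell by 0.41 in Cd50 against Cd20 (adjusted p = 0.0232). That call ended when Cd20 1 (0.136) or Cd20 2 (0.0517) was left out and under library size alone (0.795). The 15 genes carry a single product name, so near-identical copies could share reads and each gene's value is uncertain.

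Heme is the other end product, and 16 genes matched by words for heme proteins were tested. In Cd20 against Control 4 were higher and 7 lower (median -0.21, all genes -0.03), or 68.8% called against 51.0% of all genes. In Cd50 against Control 1 was higher and 4 lower (median -0.01, all genes 0.03), or 31.2% against 39.6%. With library size alone 7 were higher and 4 lower in Cd50 against Control. In Cd50 against Cd20, 8 were higher and 7 lower (median -0.01, all genes 0.03), or 93.8% against 70.0%. Catalase A05091, which breaks down hydrogen peroxide, was at 18.9 ± 0.882 CPM in Control, 4.28 ± 1.13 in Cd20 and 11.002 ± 2.03 in Cd50 (SD, n = 3), with its lowest level at 20 mg/L. A second gene with the same product name, A03240, was far more abundant, at 466 ± 44.9, 457 ± 8.43 and 292 ± 34.2 CPM at 0, 20 and 50 mg/L, and was singled out after its values were seen. It did not pass in Cd20 against Control (log2 fold change -0.03, edgeR adjusted p = 0.841) and fell by 0.67 in Cd50 against Control (adjusted p = 0.000458). A05091 fell in both, by 2.13 in Cd20 (adjusted p = 1.02e-05) and by 0.78 in Cd50 (0.00576). Both catalase genes were thus lower in Cd50 than in Control, and only A05091 passed in Cd20. In Cd50 against Cd20 they went opposite ways, A05091 at 1.35 (adjusted p = 0.000207) and A03240 at -0.65 (0.00029).

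A02478, a cytochrome P450 gene of a family of heme-dependent oxygenases, was lower at each concentration than in Control. So was A09931, a gene of the electron carrier cytochrome b5. Both were named for low p, and other genes of these names, singled out after their values were seen, differed. Relative to Control, P450 gene A04148 fell by 0.97 in Cd20 (edgeR adjusted p = 0.013) and was at 0.53 in Cd50 (0.0969). Among cytochrome b5 and b5-like genes, A00101 was at 0.56 in Cd20 (0.00788) and A01708 at 0.94 in Cd50 (0.00535). A03242 fell by 0.70 in Cd20 (0.00141), and A05947 passed at neither concentration. A02478 stood at 906 ± 52.6 CPM in Control, 488 ± 24.1 in Cd20 and 348 ± 26.9 in Cd50, and A09931 at 17.4 ± 1.55, 12.4 ± 1.49 and 7.31 ± 0.693 CPM (SD, n = 3). The Cd20 call of A09931 was lost without Cd20 2 (edgeR adjusted p = 0.077), and the fall of A02478 in Cd50 against Cd20 was lost with library size alone (0.113). The list also took in A05657, a holocytochrome c synthase, which attaches heme to cytochrome c, and A07979, an assembly factor of cytochrome c oxidase, both of which are named for the assembly of cytochromes. A07979 was at 0.67 in Cd20 against Control (edgeR adjusted p = 0.0057). A05657, like A07979 singled out after its values were seen, was at 33.3 ± 3.15 CPM in Cd20 against 15.8 ± 2.84 in Control (log2 fold change 1.07, adjusted p = 0.00101).

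**Figure D5:**
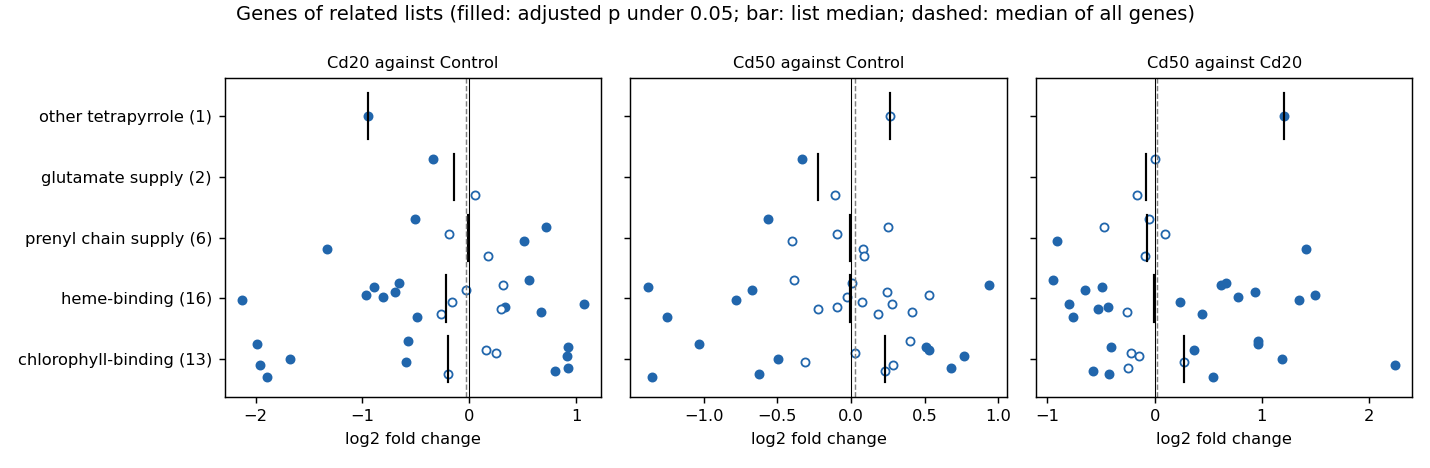
Log2 fold changes of the tested genes of 5 related lists (number of genes in brackets) in the 3 comparisons; filled points passed at an adjusted p under 0.05, black bars are list medians and the dashed line is the median of all genes. Genes of the chlorophyll-binding and heme-binding lists lie on both sides of 0 in each comparison.

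The nearest genes on each side of the members were read for each member in turn. A03154, a ras-related ypt1-like gene 386 bases from A03155, was at 0.53 in Cd20 against Control and fell by 0.75 in Cd50 against Cd20, the opposite of A03155 (edgeR adjusted p = 0.00808 and 0.000574). A03156, 654 bases away on the other side, fell by 0.95 in Cd20 against Control (adjusted p = 0.0117, or 0.0592 with Cd20 2 left out) and was at 0.93 in Cd50 against Cd20, as A03155 was. Both neighbours of A07916 fell in Cd20 against Control, A07915 by 0.77 and A07917 by 0.66, where A07916 rose. Beside A00577, A00576 was at 0.49 in Cd20 and 0.40 in Cd50 relative to Control, and A00578 at -0.28 without passing and at 0.62. Beside A00125, A00123 passed in 0 of 3 comparisons and A00126 fell by 0.84 in Cd20 against Control.

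The genes most like each member across the 9 libraries were ranked by Pearson r of log2 CPM, a description over libraries that share 3 groups. For A03155 the highest r was 0.997 for both undescribed A01433 and A06315, and the closest described genes were a PCI-domain gene (A06450, r = 0.995), coatomer subunit delta (A10247, 0.994), of the coat of transport vesicles, and an aminotransferase (A05058, 0.993). For A07916 they were undescribed A07649 (0.982) and A09637 (0.981), and a proton-pumping pyrophosphatase (A02544, 0.977), an alcohol dehydrogenase (A06790, 0.966) and an iron-sulfur ribosome synthesis protein (A05030, 0.963). A00577 was most like undescribed A09426 (0.974) and A03578 (0.973), and an NADP-binding protein gene (A09495, 0.968), a mitochondrial elongation factor G (A06408, 0.959) and a glutathione S-transferase-domain gene (A02067, 0.955). For A00125, whose groups hardly differ, r was lower among described genes, with mitochondrial heat shock protein SSC1 (A02195) at 0.793, A05001 at 0.758 and an acyl-CoA dehydrogenase-like gene (A10958) at 0.708, and undescribed Novel00171 (0.914) and A06189 (0.899) above them. Among the members themselves, A03155 and A07916 ran opposite to each other (r = -0.968), and no pair of members had an r above 0.392.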

How the data were processed

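Libraries were poly(A)-selected and directional (dUTP), all in batch 1, per the labels' protocols. DESeq2 1.34.0, StringTie 2.2.1 and STAR 2.7.10a are named in the submitters' processing notes. How reads were counted, whether by strand, and on which assembly and annotation was not given in the sources used here. Gene counts were deposited as integers, 1 column a library. Dividing them by coding length and library total gave 100% of the deposited FPKM to within 1%. The authors' deposited tables of comparisons hold log2 fold changes and p-values for genes under an adjusted p of 0.05, per the file headers and values, and group means on a normalized scale (signal, by the authors) that were not printed.

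The 3 groups were compared by the quasi-likelihood F-test of edgeR 4.0.16 (R 4.3.3) in a single model of all 9 libraries, with TMM factors and no covariate. filterByExpr kept 11140 genes and removed 1465, and p-values were adjusted over all of them by Benjamini-Hochberg. The standard error is the log2 fold change divided by the root of F, and intervals are at 95%. Log2 CPM for proportions and likeness used a prior count of 2. Other tools were DESeq2 1.42.0 and limma 3.58.1 on log2 FPKM with a pseudocount of 1 or 0.1. Word patterns chose the related lists from product names, with the matched organism removed first; likeness was ranked over tested genes, described ones being those with a product other than hypothetical or uncharacterized.

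The members, lists, tests and the rule for naming genes were chosen with earlier results of these data known. The rule named the members, all tested genes of the tetrapyrrole and glutamate lists, the 3 of lowest adjusted p and those called in all comparisons in the other lists, the nearest genes, and the 2 most alike genes and 3 most alike described genes per member. Residuals of libraries with the same replicate number correlated at 0.594, 0.449 and 0.186 for Cd50 against Control, each above 0.1. Cd50 1 and Cd50 2 were most alike Control 1 and Control 2, but Cd50 3 was also most alike Control 2. A pairing of these libraries is therefore possible but was not established, and the labels give none. The main test had no block, since the labels do not say what a number stands for.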

Additional observations from a re-analysis of the deposited data

Results flagged for a closer look

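Chlorophyll synthase (A03155) was flagged because its effects at the 2 concentrations had opposite signs against Control. The tested difference was 1.22 on the log2 scale in Cd50 against Cd20 (edgeR adjusted p = 3.25e-05), where 70.0% of all tested genes passed. How many of all genes had opposite signs in this way was not counted. It was lower than Control in 3 of 3 Cd20 libraries and higher in 3 of 3 Cd50 libraries, where 61.6% and 46.9% of all tested genes were separated from Control in one direction or the other.

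The coproporphyrinogen oxidase-like gene (A07916) did the same in the other direction, with a difference of -0.78 in Cd50 against Cd20 (edgeR adjusted p = 3.64e-05). Its sign against Control at 50 mg/L rests on a call that was lost with library size alone, where the log2 fold change was -0.0066.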

How the results depend on the processing

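The 12 fold changes of the members were recomputed under 21 alternatives each, 252 in all, of which 202 kept direction and side of the threshold, 28 lost the call and 22 changed sign. All 22 sign changes were of A00125, which passed in 0 comparisons. All alternatives kept the calls of A03155 and A07916 in Cd20 against Control and Cd50 against Cd20 and of A00577 in Cd50 against both others.

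A00577 in Cd20 against Control lost its call at log2 fold changes of 0.37 with library size alone, 0.40 with upper quartile factors, and 0.35, 0.39 and 0.35 in limma on FPKM (pseudocount 1, 0.1, and 1 unfiltered), and ranged from 0.38 to 0.71 without each library. A07916 in Cd50 against Control lost it at -0.0066 with library size alone, -0.082 with upper quartile factors, -0.23 without a filter, -0.0112, -0.0113 and -0.0112 in the 3 limma settings, -0.24 within the 6 libraries compared and -0.18 without both Control 1 and Cd50 1, and ranged from -0.26 to -0.21 without each library. A03155 in Cd50 against Control ranged from 0.33 to 0.53. Leaving out a library both reduces the samples and can shift the effect, as for A03155, at 0.33 without Control 1. The cause of the losses was not tested.

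A00125 in Cd20 against Control was at -0.089 with library size alone, -0.057 with upper quartile factors and -0.087, -0.092 and -0.087 in limma, and between -0.073 and 0.14 without each library. In Cd50 against Cd20 it was at 0.36 with library size alone, 0.26 with upper quartile factors, 0.33, 0.35 and 0.33 in limma, 0.045 within the 6 libraries, 0.040 there with a replicate block and 0.12 without Control 1 and Cd50 1, and between -0.12 and 0.11 without each library. In Cd50 against Control it was between -0.079 and 0.14 without each library.

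Chlorophyll synthase relative to single earlier steps differed in Cd20 against Control by -0.82 (A00125) and -1.33 (A07916), in Cd50 against Cd20 by 0.66 (A00577) and 2.0 (A07916), and in Cd50 against Control by -0.65 (A00577), 0.40 (A00125) and 0.67 (A07916). Without each library the mean proportion ranged from -1.27 to -1.07, 1.24 to 1.37 and 0.02 to 0.22 in these comparisons.

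A replicate block over all 9 libraries changed no member's call: A00577 in Cd50 against Control was at 1.07 and A03155 at 0.42. Residual correlations of same-numbered libraries were -0.167, 0.056 and -0.0454 for Cd20 against Control and -0.214, 0.132 and -0.218 for Cd50 against Cd20, so no pairing was assumed there. Genes called over the whole table numbered 4287 to 7423, 3054 to 6047 and 6761 to 8732 in Cd20 against Control, Cd50 against Control and Cd50 against Cd20. Depth limits A00577 most, with 79 to 248 reads per library.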
